A study of Mus musculus with 9 samples.

Results

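The genes described here encode the A20, ABIN and CYLD group of proteins, which is linked to the restraint of NF-kB signalling in macrophages. Whether each member restrains it in these cells was not tested. The group holds A20 and CYLD, which edit or remove ubiquitin chains on signalling complexes, and binding proteins, an adaptor and an E3 ligase that work with A20. The members were taken by gene name, as Tnfaip3, Tnip1, Tnip2, Tnip3, Tax1bp1, Itch and Cyld, and all 7 were found among the 16921 genes of the table. Their translation was measured by RiboSeq, the sequencing of mRNA fragments protected by ribosomes (footprints), so that a level reflects both the amount of an mRNA and the ribosomes on it, and these were not separated here. In such bulk samples, fewer cells that express a gene and less RNA per cell cannot be told apart.

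The 9 libraries came from immortalized bone marrow-derived macrophages (BMDMs) that lack TTP (tristetraprolin, encoded by Zfp36), a protein that binds AU-rich elements in 3′UTRs and promotes the decay of the mRNA. The primary cells had been grown with M-CSF, a macrophage growth factor, at 10 ng/ml for 10 days before immortalization. Cells of all 3 conditions carried the TTP knockout and the oncogenes human c-Myc and HRas G12V used for immortalization, and had been transduced with a retroviral, tetracycline-inducible vector. In the first condition this vector expressed GFP, in the second wild-type TTP fused to GFP (GFP-TTP), and in the third GFP-TTP-AA, a fusion with the substitutions S52A and S178A, which the kinase MK2 cannot phosphorylate at these serines. All cells received doxycycline at 1 µg/ml for 6 h and LPS, the bacterial lipopolysaccharide, at 1 µg/ml for 1 h, and each condition has 3 libraries. Each construct was present in a line of its own, so that line and construct cannot be told apart. Nothing in the labels says whether the replicates were separate cultures, and p-values cover only the spread between these libraries.

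A20, the product of Tnfaip3, is a ubiquitin-editing enzyme that acts on proteins such as RIPK1 and TRAF6 and is induced by NF-kB as a negative feedback. ABIN-1, ABIN-2 and ABIN-3, the products of Tnip1, Tnip2 and Tnip3, are A20-binding proteins, of which ABIN-1 reads linear and lysine-linked ubiquitin chains. TAX1BP1 is an adaptor that brings A20 to its substrates, ITCH is a HECT-type E3 ligase that works with A20, and CYLD is a separate deubiquitinase that cleaves linear and lysine-linked chains.

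The sequences described for the members are AU-rich sites, to which TTP binds, and kappa B elements, through which NF-kB acts. Their part in the differences between conditions was not tested. The 3′UTRs were those of the principal transcript of each gene in GENCODE on GRCm38, the build of the files. The heptamer TATTTAT, searched on the transcript strand, occurred in 28.7% of the 9894 genes that had an annotated 3′UTR and enough footprints to be tested. Among the 6 members for which these counts are given, it was found 2 times in Cyld, 1 time in Tnip3 and 1 time in Tax1bp1. It was found 0 times in Tnip1, Tnip2 and Itch. The site of Tnip3, which was past the threshold in 2 comparisons, and that of Tax1bp1, which had the lowest fold change in GFP-TTP-AA against GFP-TTP, are printed below 5′ to 3′ with the heptamer in capitals, both in 3′UTR exons.
Tnip3, chr6:65632474-65632502, plus strand: gtttatgcagcTATTTATcggaaagataa
Tax1bp1, chr6:52766695-52766723, plus strand: gattgagtttgTATTTATaactagctata

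The shorter pentamer ATTTA, which each of these heptamers contains, occurred in 68.2% of the 3′UTRs of tested genes. Among the same 6 members, it was found 12 times in the 4932 nt of the Cyld 3′UTR and 7 times in the 2387 nt of Itch. Tax1bp1 held 4 in 706 nt, Tnip3 held 3 in 2932 nt and Tnip2 held 1 in 600 nt. The 750 nt 3′UTR of Tnip1 held 0. A match is a description of the letters and not a measured binding site.

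Promoters, from 250 bases before to 50 bases after the start site, were taken from RefSeq on GRCm38, which matched 6 members with 8 promoters. The kappa B consensus, searched on both strands, was present in 4.51% of 32851 promoters. It was present in 5 of the 8 promoters of the members, namely in Tnfaip3, Tnip1, Tnip3, Cyld and Tax1bp1. In Cyld it lay 155 bases before the start site and in Tax1bp1 34 bases after a start site. Cyld and Tax1bp1 were not past the threshold in any comparison. The matches of Tnfaip3, Tnip1 and Tnip3, which are known to respond to LPS, are printed below on the strand of the gene, with the consensus in capitals. In Tnip1 the capitals cover overlapping matches.
Tnfaip3, 125 bases before the start site, chr10:19015517-19015544, minus strand: actcacgcgGGGACACCCCggggcggga
Tnfaip3, 12 bases before the start site, chr10:19015404-19015431, minus strand: atttccatcGGAAATCCCCctgttggca
Tnip1, 58 bases before the start site, chr11:54962978-54963007, minus strand: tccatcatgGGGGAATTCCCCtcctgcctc
Tnip3, 54 bases before the start site, chr6:65590335-65590362, plus strand: agacatcctGGGAAATCCCagttacatg

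The values deposited for the libraries are the means fitted by the authors' DESeq2 model. They hold a term for the condition and a term for the replicate number of each gene and no residual, so that the ratio between same-numbered libraries of 2 conditions is constant in each gene. The level of a gene in a library is this fitted value divided by the scale of the library, which was recovered from the table and ran from 0.413 to 2.15. Their sum per library lay between 2570290 and 12804500. The error of each comparison is the standard error (SE) of the log2 fold change in the deposited tables. A gene was past the threshold when its Wald test, two-sided, gave an adjusted p under 0.05. The adjustment ran over all genes whose fitted mean was 10 or more and that had a deposited SE in that comparison. Because the authors' model shrinks fold changes towards 0, those given here are smaller than plain ratios of counts would be.

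The label check was made on Zfp36, whose coding sequence is in 2 of the 3 constructs. The Zfp36 level was 459 in GFP, 927 with the wild type and 1536 with the AA mutant. On which stretch of the gene the footprints of the knockout cells lay is not in the tables. The log2 fold change against GFP was 1.01 (SE 0.25, adjusted p = 0.00492) for GFP-TTP and 1.74 (SE 0.25, adjusted p = 2.4e-09) for GFP-TTP-AA. The Zfp36 level was also higher in GFP-TTP-AA than in GFP-TTP, by 0.73 on the log2 scale (SE 0.25, adjusted p = 0.0386). Its part in the differences between these lines was not tested. Of 9 macrophage marker names 8 were in the table and tested. None of the 3 fibroblast, 2 T cell and 2 B cell markers in the table reached a fitted mean of 10. The summed level of the macrophage markers was 96173 in GFP, 76213 with the wild type and 109434 with the AA mutant. Most of this sum was Lyz2, at 64039, 45989 and 71409, and Itgam and Cd14 were not lower in the wild type than in GFP. Emr1, Lyz2 and Spi1 were past the threshold and higher in the mutant than in the wild type, Emr1 and Lyz2 were past it and lower in the wild type than in GFP, and Emr1 was past it and higher in the mutant than in GFP. The part of these marker differences in the results was not tested. Of 5 neutrophil markers 3 were in the table and only S100a8 was tested, with levels of 27.0, 25.6 and 55.9 in the same order. S100a8 was past the threshold in both comparisons with GFP-TTP-AA. Mpo, at 0.127, 0.124 and 0.124, and Camp, at 1.28, 1.22 and 1.39, were too low to be tested. The part of neutrophils in the results was not tested.

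The members differed widely in their footprint levels per kilobase of coding sequence, and these were led by Tnip3 and Tnfaip3. In GFP cells Tnip3 had a level of 2202 per coding kb and Tnfaip3 a level of 1787. Tax1bp1 followed at 756 and Tnip1 at 578. Tnip2, Itch and Cyld were lower, at 170, 124 and 90.5 per coding kb. The order was the same in GFP-TTP, with 2041 for Tnip3 and 91.7 for Cyld. In GFP-TTP-AA Tnip1, at 979 per coding kb, stood above Tax1bp1, at 659. Levels carry no error of their own in the tables, so that the order of neighbours was not tested. The first place depended on the transcript taken for Tnip3. With its longest annotated coding sequence of 840 nt in place of 627 nt, Tnip3 stood at 1644 per coding kb in GFP, below Tnfaip3, and at 2770 in GFP-TTP-AA, still above it. Per gene, without the correction for length, the fitted mean of Tnfaip3 was higher than in 98.0% of tested genes and that of Tnip2 higher than in 51.5%.

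**Figure D1:**
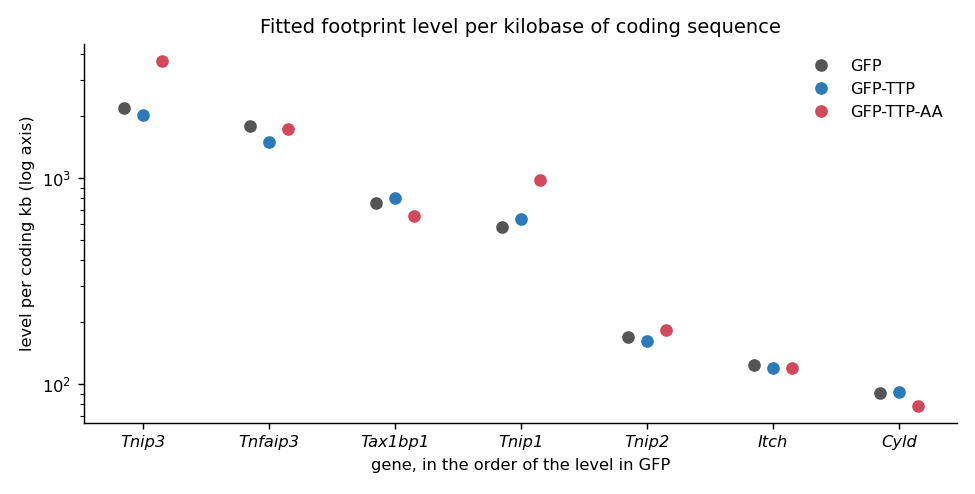
Fitted footprint level per kilobase of coding sequence (log axis) of the 7 genes, with a grey point for GFP, a blue point for GFP-TTP and a red point for GFP-TTP-AA. Tnip3 and Tnfaip3 lie between 1496 and 3711, and Tnip2, Itch and Cyld between 78.7 and 183.

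The first comparison asked which levels changed when wild-type TTP was returned to the knockout cells. In GFP-TTP against GFP, 208 of 9938 tested genes were past the threshold (2.09%), and of the 7 members 0 were past it. At an unadjusted p under 0.05 there were also 0. The median log2 fold change of the members was -0.05, beside 0.0020 for all tested genes. The second comparison, of GFP-TTP-AA with GFP, had 305 of 10103 genes past the threshold (3.02%), of which 177 (1.75% of tested genes) were higher in GFP-TTP-AA. Of the members, 2 of 7 were past it, Tnip1 and Tnip3, both higher, and the median was -0.04, beside 0.0052 for all tested genes. GFP-TTP-AA set against GFP-TTP, which asked what the loss of the MK2 sites changed, had 1034 of 10103 genes past the threshold (10.2%), of which 571 (5.65%) were higher. Again 2 of 7 members were past it, Tnip1 and Tnip3, both higher, with a median of 0.18 for the members and 0.0054 for all tested genes. Any pair of these comparisons shares the libraries of a condition, so that they are not independent.

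**Figure D2:**
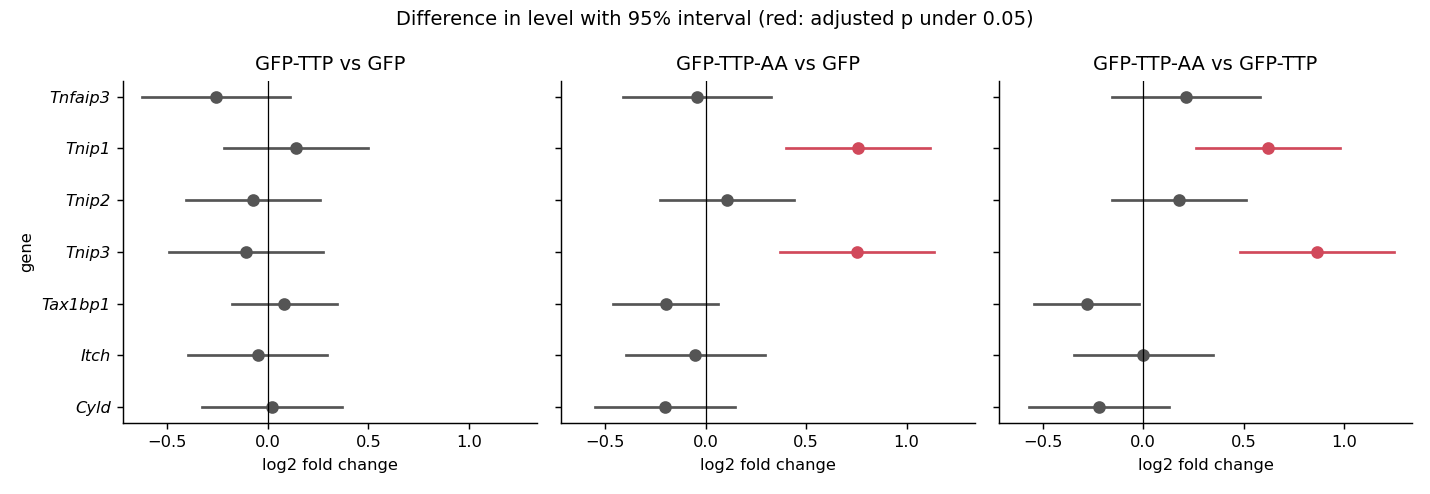
Log2 fold change (x axis) of each member (y axis) in the 3 comparisons, as a point with its 95% interval, red where the adjusted p was under 0.05. Only Tnip1 and Tnip3, in both comparisons with GFP-TTP-AA, are red, with fold changes between 0.62 and 0.86.

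Tnip3 (ENSMUSG00000044162, chromosome 6, 65525313 to 65634040, plus strand) encodes ABIN-3, an A20-binding protein that LPS induces in macrophages. In GFP its level was 999, 1387 and 1900 in replicates 1, 2 and 3. In GFP-TTP the levels were 926, 1286 and 1762. In GFP-TTP-AA they were 1683, 2337 and 3202. Each GFP-TTP-AA library was thus above the same-numbered libraries of the other conditions, as the fitted model makes it, but the conditions overlapped, since replicate 1 of GFP-TTP-AA lay below replicate 3 of both others. Against GFP-TTP, Tnip3 was higher in GFP-TTP-AA by 0.86 on the log2 scale (SE 0.20, 95% interval 0.48 to 1.25, adjusted p = 0.000414), a fold of 1.82. Against GFP the difference was 0.75 (SE 0.20, interval 0.37 to 1.14, adjusted p = 0.00792), a fold of 1.69. Between GFP-TTP and GFP it was -0.11 (SE 0.20, interval -0.49 to 0.27, adjusted p = 0.90). The log2 fold change of Tnip3 in GFP-TTP-AA against GFP-TTP was higher than that of 98.2% of tested genes.

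Tnip1 (ENSMUSG00000020400, chromosome 11, 54910785 to 54962917, minus strand) encodes ABIN-1, which binds ubiquitin chains and joins A20 to its targets. In GFP its level was 838, 975 and 1736 in replicates 1, 2 and 3. In GFP-TTP the levels were 922, 1073 and 1911. In GFP-TTP-AA they were 1419, 1651 and 2940. The conditions overlapped, since replicates 1 and 2 of GFP-TTP-AA lay below replicate 3 of both others. Against GFP, Tnip1 was higher in GFP-TTP-AA by 0.76 (SE 0.18, interval 0.40 to 1.12, adjusted p = 0.00299), a fold of 1.69. Against GFP-TTP it was higher by 0.62 (SE 0.18, interval 0.26 to 0.98, adjusted p = 0.0112), a fold of 1.54. Between GFP-TTP and GFP the difference was 0.14 (SE 0.18, interval -0.22 to 0.50, adjusted p = 0.85). The 3′UTR of Tnip1 holds no ATTTA and that of Tnip3 the 1 heptamer shown above.

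**Figure D3:**
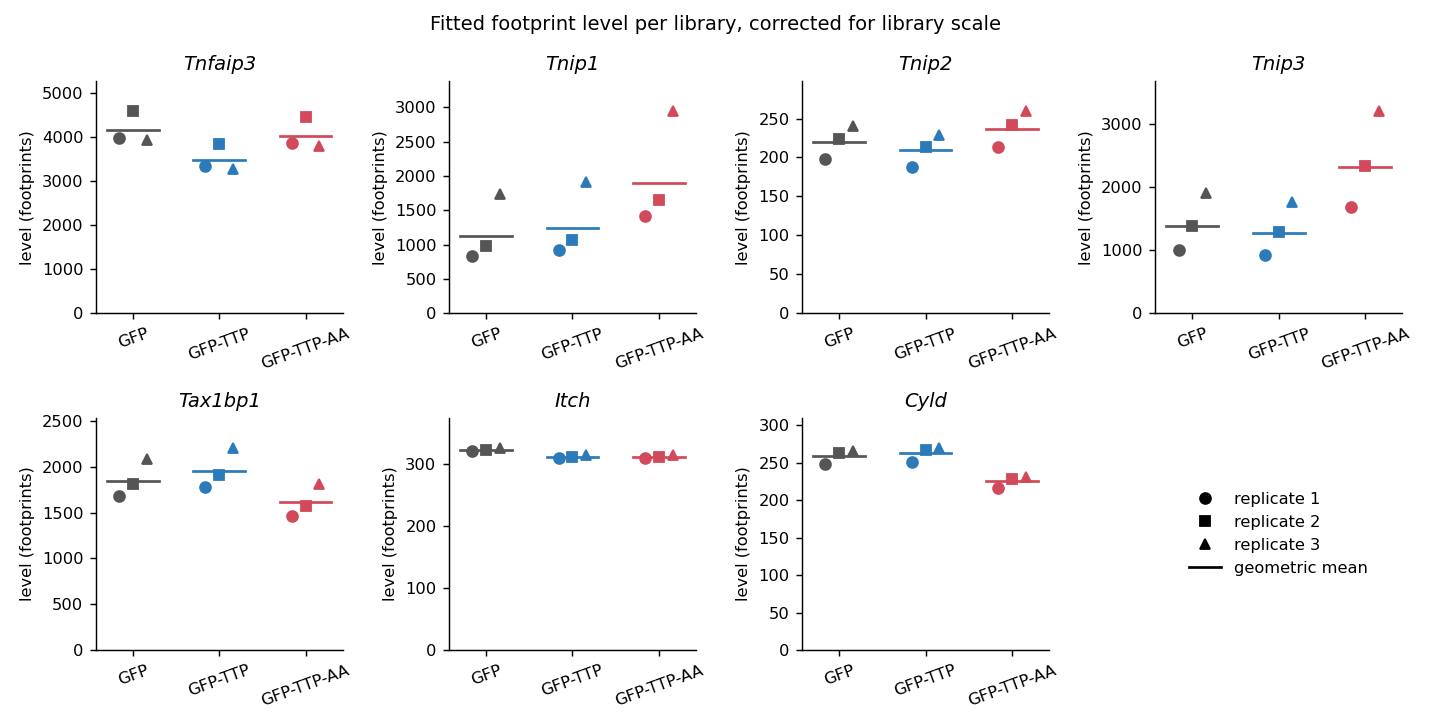
Fitted footprint level (y axis, footprints divided by the library scale) of each member in the 3 libraries of each condition, with the symbol giving the replicate number and the line the geometric mean. Tnip1 and Tnip3 lie highest in GFP-TTP-AA, and in both genes the spread over replicate numbers is as wide as the shift between conditions.

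In Tnip1 and Tnip3 the replicate number moved the level as far as the construct did. The term for the replicate number, which is common to all conditions, spanned 2.07-fold in Tnip1 (1.05 on the log2 scale) and 1.90-fold in Tnip3 (0.93), with the lowest level in replicate 1 and the highest in replicate 3 in both. These ranges were wider than in 98.9% and 98.1% of tested genes, whose median was 0.29 on the log2 scale. Tnfaip3 spanned 0.22 with its highest level in replicate 2, Tnip2 spanned 0.28 and Tax1bp1 spanned 0.31. Itch, at 0.023, had a narrower range than all but 0.544% of tested genes, and Cyld spanned 0.10. The study's methods name the library date as the term beside the condition, and the labels give no date. The authors' model takes the replicate term out before the condition is tested, so that it is not part of the fold changes above. Each SE already reflects the scatter around both terms.

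**Figure D4:**
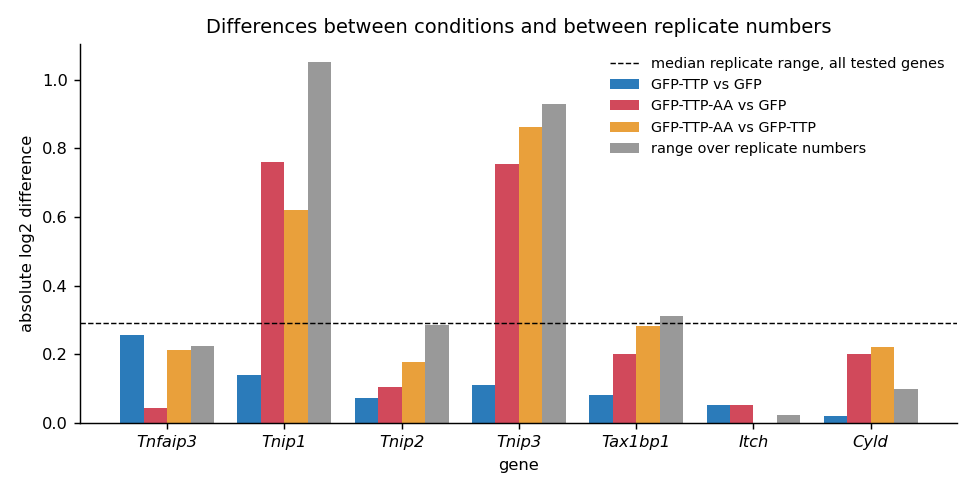
Absolute log2 difference (y axis) of each member in the 3 comparisons (blue, red and orange bars) and its range over replicate numbers (grey bars), with the median range of all tested genes at 0.29 as a dashed line. In Tnip1 and Tnip3 the grey bars, at 1.05 and 0.93, exceed those of the conditions.

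Tnfaip3 (ENSMUSG00000019850, chromosome 10, 19000910 to 19015657, minus strand), the gene of A20, had the highest footprint level of the group per gene. In GFP it was 3994, 4591 and 3930 in replicates 1, 2 and 3. In GFP-TTP the levels were 3342, 3841 and 3288. In GFP-TTP-AA they were 3874, 4453 and 3812. The GFP-TTP libraries were below all of those of GFP and overlapped with those of GFP-TTP-AA, and since the shift is the same in every fitted replicate this is no evidence by itself. Against GFP, the difference of GFP-TTP was -0.26 (SE 0.19, interval -0.63 to 0.11, adjusted p = 0.67), and that of GFP-TTP-AA was -0.04 (SE 0.19, interval -0.41 to 0.32, adjusted p = 0.97). Against GFP-TTP, GFP-TTP-AA differed by 0.21 (SE 0.19, interval -0.16 to 0.58, adjusted p = 0.55). None of the 3 passed the test. The intervals allow a level in GFP-TTP between 0.648 and 1.08 times that in GFP.

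The median log2 fold change of the 476 tested genes of chromosome 10 in GFP-TTP against GFP was -0.12, and that of 482 in GFP-TTP-AA against GFP-TTP was 0.17, both with the sign of Tnfaip3. In GFP-TTP-AA against GFP the median was 0.04, opposite in sign to the -0.04 of Tnfaip3. With the median of the chromosome subtracted, the difference of Tnfaip3 was -0.14 for GFP-TTP against GFP, -0.08 for GFP-TTP-AA against GFP and 0.04 for GFP-TTP-AA against GFP-TTP. On chromosome 11 the median in GFP-TTP-AA against GFP was -0.08, and Tnip1 stood 0.84 above it. On chromosome 6 the median in GFP-TTP-AA against GFP-TTP was 0.05, and Tnip3 stood 0.82 above it. The 5 genes whose levels over the 3 conditions were nearest to the pattern of Tnfaip3 were Uxt, Foxred2, Pdss2, Pdzd11 and Chic2, with Euclidean distances from 0.0017 to 0.011 on the log2 scale among 8439 genes whose fitted mean was 50 or more. Of these, Pdss2 lies on chromosome 10 as well. The distances are smaller than the SE of 0.19 of each Tnfaip3 comparison, none of which passed the test.

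Tax1bp1 (ENSMUSG00000004535, chromosome 6, 52713729 to 52766780, plus strand), the adaptor of A20, was the member with the lowest log2 fold change in GFP-TTP-AA against GFP-TTP. In GFP its level was 1678, 1808 and 2083 in replicates 1, 2 and 3. In GFP-TTP the levels were 1776, 1913 and 2204. In GFP-TTP-AA they were 1462, 1575 and 1815. The GFP-TTP-AA libraries were below their same-numbered counterparts and overlapped with them as a group. The difference of GFP-TTP-AA from GFP-TTP was -0.28 (SE 0.13, interval -0.54 to -0.02), with an unadjusted p of 0.0347 and an adjusted p of 0.18 by the Wald test, so that it did not pass the correction. From GFP it was -0.20 (SE 0.13, adjusted p = 0.54), and between GFP-TTP and GFP it was 0.08 (SE 0.13, adjusted p = 0.89).

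Tnip2 (ENSMUSG00000059866, chromosome 5, 34496087 to 34513991, minus strand) encodes ABIN-2, which also stabilizes the kinase TPL2. In GFP its level was 198, 224 and 241 in replicates 1, 2 and 3. In GFP-TTP the levels were 188, 213 and 229. In GFP-TTP-AA they were 213, 241 and 259. The libraries overlapped, and no difference passed the test. Against GFP-TTP the difference was 0.18 (SE 0.17, interval -0.15 to 0.51, adjusted p = 0.59), against GFP 0.11 (SE 0.17, adjusted p = 0.88), and between GFP-TTP and GFP -0.07 (SE 0.17, adjusted p = 0.93). For Tnip2 the upper bound of 0.51 lay below the values measured for Tnip1 and Tnip3 in the same comparison, though the difference between these genes was not tested.

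Itch (ENSMUSG00000027598, chromosome 2, 155133509 to 155226855, plus strand), the E3 ligase, had the narrowest range of levels of all members. It lay between 320 and 326 in the GFP libraries, between 309 and 314 in GFP-TTP and likewise between 309 and 314 in GFP-TTP-AA, so that GFP lay just above both others. Its difference was -0.05 (SE 0.18) in both comparisons with GFP and 0.00079 (SE 0.18, interval -0.34 to 0.35) in GFP-TTP-AA against GFP-TTP. The intervals thus leave room for changes of up to 1.27-fold in the last comparison.

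Cyld (ENSMUSG00000036712, chromosome 8, 88697028 to 88751945, plus strand), the deubiquitinase, had a level between 248 and 266 in GFP and between 251 and 269 in GFP-TTP. In GFP-TTP-AA its levels were 216, 228 and 231, below all libraries of the other conditions. This separation follows from the small replicate term of the fitted values and is no evidence by itself. The difference of GFP-TTP-AA was -0.20 from GFP (SE 0.18, interval -0.55 to 0.15, adjusted p = 0.70) and -0.22 from GFP-TTP (SE 0.18, interval -0.57 to 0.13, adjusted p = 0.51). Between GFP-TTP and GFP it was 0.02 (SE 0.18, adjusted p = 0.98).

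The other genes of the pathway were described in 6 lists, of which 69 genes were tested in the comparisons with GFP-TTP-AA and 68 in that of GFP-TTP with GFP. In GFP-TTP-AA against GFP-TTP, 10 of them rose and 1 fell, and their median log2 fold change was 0.15. In GFP-TTP-AA against GFP, 1 rose and 2 fell, with a median of 0.03. In GFP-TTP against GFP, 0 rose and 1 fell, with a median of -0.08. Past the threshold in any direction were 15.9%, 4.35% and 1.47% of these genes, beside 10.2%, 3.02% and 2.09% of all tested genes. Higher in GFP-TTP-AA were 5.65% of all tested genes against GFP-TTP and 1.75% against GFP. The counts per list below stand beside the same shares, and no list was tested as a set.

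Of all tested genes 5.65% rose in GFP-TTP-AA against GFP-TTP. Of the genes that assemble ubiquitin chains, 4 of 14 tested rose in this comparison and 0 fell, with a list median of 0.20. These were Birc3, the E3 ligase cIAP2, from a level of 311 to 544 (log2 fold change 0.81, SE 0.21, adjusted p = 0.00235), and Ube2l3, the E2 enzyme of the linear chain complex LUBAC, from 341 to 494 (0.53, SE 0.16, adjusted p = 0.0160). The others were Traf2, an adaptor of TNF receptors, from 226 to 323 (0.52, SE 0.16, adjusted p = 0.020), and Ube2n, the E2 enzyme UBC13, from 282 to 392 (0.48, SE 0.16, adjusted p = 0.0382). In both comparisons with GFP, 0 of the 14 were past the threshold, with medians of -0.15 for GFP-TTP and 0.14 for GFP-TTP-AA. Birc3 had 0.63 in GFP-TTP-AA against GFP (SE 0.21, adjusted p = 0.0619).

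Of the substrates and upstream adaptors, 1 of 10 rose in GFP-TTP-AA against GFP-TTP, beside 5.65% of all tested genes, with a median of 0.33. It was Ripk2, the kinase downstream of NOD receptors, from 129 to 203 (0.65, SE 0.22, adjusted p = 0.0353). In the comparisons with GFP 0 of the 10 were past the threshold, with medians of -0.11 for GFP-TTP and 0.14 for GFP-TTP-AA. Of the chain readers and kinases, 1 of 14 rose in GFP-TTP-AA against GFP-TTP, beside the same 5.65%, with a median of 0.11. It was Tank, an adaptor of TBK1, from 536 to 767 (0.52, SE 0.18, adjusted p = 0.0496), and the list had 0 past the threshold against GFP, with medians of -0.02 for GFP-TTP and 0.03 for GFP-TTP-AA.

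Of the other deubiquitinases and their partners, only Usp18, which removes the ubiquitin-like ISG15 and is an interferon-stimulated gene, was past the threshold. Its level was 77.2 in GFP, 28.6 with the wild type and 62.0 with the AA mutant. It fell by 1.43 on the log2 scale in GFP-TTP against GFP (SE 0.24, adjusted p = 1.1e-06) and was higher by 1.11 in GFP-TTP-AA against GFP-TTP (SE 0.24, adjusted p = 0.000204). The list had medians of 0.04 for GFP-TTP against GFP over 11 genes, -0.02 for GFP-TTP-AA against GFP and 0.04 for GFP-TTP-AA against GFP-TTP, over 12 genes each. Of 8 partners of A20 and Itch, 1 was past the threshold in any comparison. Txnip, a redox regulator that is a substrate of ITCH, had a level of 935 in GFP, 705 in GFP-TTP and 571 in the AA mutant and fell by 0.71 in GFP-TTP-AA against GFP (SE 0.16, adjusted p = 0.000935). The medians of this list were -0.10 for GFP-TTP against GFP, -0.11 for GFP-TTP-AA against GFP and -0.09 for GFP-TTP-AA against GFP-TTP.

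The list of NF-kB feedback inhibitors also holds I kappa B family genes, and whether NF-kB induces each of its genes was not tested. Of its 11 tested genes, 3 rose and 1 fell in GFP-TTP-AA against GFP-TTP, with a median of 0.30. Of all tested genes 5.65% rose. The RNase gene Zc3h12a, which encodes Regnase-1, rose from 571 to 917 (0.68, SE 0.20, adjusted p = 0.00899), and was also higher than in GFP, at 578 (0.66, SE 0.20, adjusted p = 0.0309). Bcl3, an atypical I kappa B protein, rose from 66.0 to 111 (0.75, SE 0.24, adjusted p = 0.0250), and Socs3, an inhibitor of cytokine signalling, from 412 to 595 (0.53, SE 0.17, adjusted p = 0.0287). Ier3, an immediate early gene, had levels of 1609 in GFP, 1235 with the wild type and 699 with the AA mutant, and fell by 0.82 against GFP-TTP (SE 0.16, adjusted p = 3.8e-05) and by 1.20 against GFP (SE 0.16, adjusted p = 2.4e-10). In GFP-TTP against GFP 0 of the 11 were past the threshold, with a median of -0.17, and in GFP-TTP-AA against GFP the median was 0.18.

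**Figure D5:**
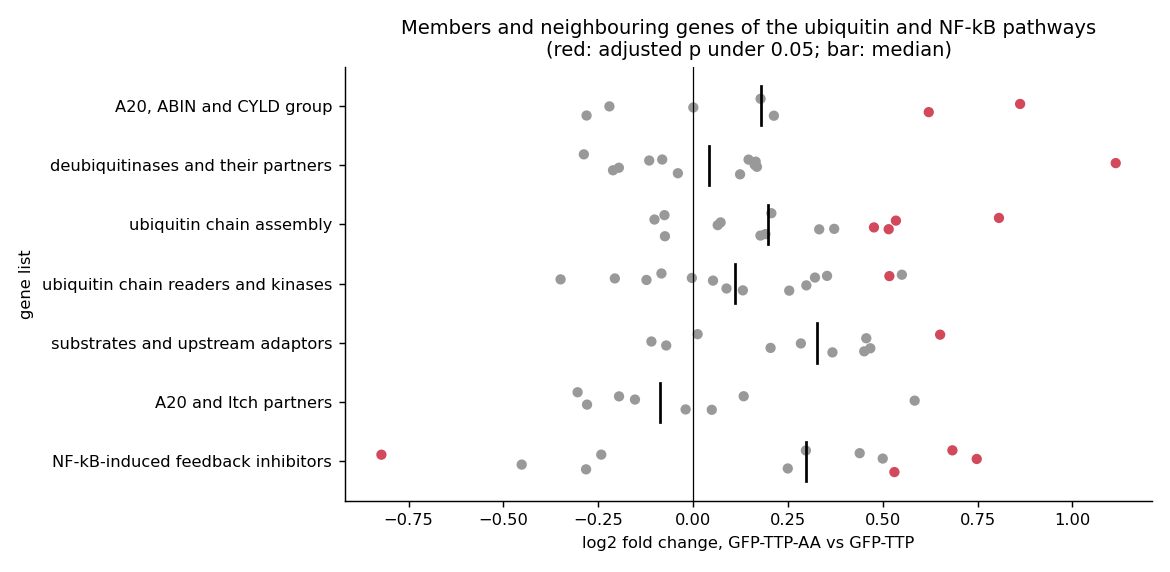
Log2 fold change of GFP-TTP-AA against GFP-TTP (x axis) for the 7 members and for the 6 lists of other pathway genes (rows), 1 point per gene, red where the adjusted p was under 0.05, with the list median as a bar. In the top row Tnip1 and Tnip3 are red, at 0.62 and 0.86, and in the row of chain assembly 4 of 14 are red, all above 0. Of all tested genes 10.2% were past the threshold in this comparison.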

How the data were processed

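RiboSeq libraries of mouse macrophages were analysed in 3 conditions of 3 libraries. RNASeq and iCLIP were not analysed here. Per the labels, the authors used Trim Galore, TopHat2 2.0.12, HTSeq and DESeq2 1.6.3 on GRCm38, and the methods allow up to 2 alignments per read. The table of 16932 lines, with 11 repeats dropped, holds a signal per gene and library that the authors fitted with DESeq2. After terms for condition and replicate number the log2 values left nothing beyond rounding. The authors' deposited comparison tables give log2 fold changes, their SE, a statistic and p-values. Only the SE, on the log2 scale, was used, and the fold changes and p-values were computed from the fitted values (Python 3.11.15, with scipy for the normal distribution) with Benjamini-Hochberg adjustment over 9938 or 10103 genes.

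The scale of each library was recovered from 27 profiles, each shared by at least 20 genes with few reads. A level is the geometric mean over 3 libraries. The procedure was tested on simulated data. Read depth is not in the tables and limits the results through the SE, from 0.0942 to 0.25.

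The members and lists were chosen with earlier results of these data known. All members are named. Of each list at most 4 genes are named, those with the largest absolute change past the threshold, with Zfp36 and the 5 genes most like Tnfaip3. Some 3′UTR sites are not reported here. Transcripts were chosen by principal rank, then coding length.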

Additional observations from a re-analysis of the deposited data

How the results depend on the processing

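No paired analysis was possible because the deposited values are fitted by a model that already holds a term for the replicate number and leave no residual, and for the same reason no replicate could be left out. Without a filter, with the fitted mean at 50 or more, with adjustment over the 3 comparisons together, with centring on the median of genes whose fitted mean was 100 or more and with the chromosome median subtracted, the number of members past the threshold stayed at 0, 2 and 2 in the 3 comparisons. For Tnip1 the adjusted p ran from 0.000673 to 0.00318 against GFP and from 0.00224 to 0.0197 against GFP-TTP. For Tnip3 it ran from 0.00525 to 0.00835 and from 0.000346 to 0.00115. All of these settings used the same fitted values and the same SEs, so that they are not independent checks. The difference of Cyld in GFP-TTP against GFP changed sign, to -0.0035, with the chromosome median subtracted. A pseudocount of 10, added to both levels, cannot turn a direction, so that it is no check of the signs. With the shrinkage undone at the higher share kept, the difference from GFP-TTP was 0.74 for Tnip1 and 1.06 for Tnip3. At the lower share, which would mean that most of the difference had been shrunk away, it was 3.94 and 4.59. The median SE in this comparison fell from 0.24 at fitted means of 10 to 100 to 0.14 at 1000 or more. Tnip1 and Tnip3, with fitted means of 1496 and 1720, had SEs of 0.18 and 0.20 in it, above the 0.14 of their level. Over all tested genes the median SE was 0.19. The share of a single gene is not in the tables, and the lower one is given only as a bound.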
